A study of Mus musculus with 16 samples.

Results

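Collagen genes were followed through liver RNA of mice kept under different oxygen patterns. The family was taken as every gene of the deposited count table whose symbol has the form Col, a number, a and a number, which gave 44 of 55487 genes. Of these, 11 encode chains of fibrillar collagens, 8 are basement membrane collagens (the type IV chains with Col15a1 and Col18a1), and 25 belong to other types. RNA came from whole livers of wild-type C57BL/6J mice aged 12 weeks, with 4 libraries in each of 4 groups. The groups were sustained hypoxia, intermittent hypoxia, overlap hypoxia, which joins both kinds of exposure, and room air. As far as the labels say, the groups shared strain, genotype and age and differed in exposure alone. The sources used here give neither oxygen levels nor exposure length nor time of collection. Repeated drops in oxygen stand for sleep apnoea in such models, and lasting low oxygen for chronic lung disease.

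The smallest library held 10940275 counts (overlap hypoxia replicate 3) and the largest 64789635 (sustained hypoxia replicate 2). Collagen genes took 4338 to 29185 counts of a library. The protocol text names retina where the tissue label is liver. The hepatocyte marker Alb held 38052858 counts over the 16 libraries, and of 6 photoreceptor markers Rcvrn had 0 counts and Pde6b 3. Of these 6 photoreceptor markers, 1 had enough counts to be tested. Their summed level averaged 5.39 CPM (counts scaled to library size) in room air, 7.01 under sustained, 7.89 under intermittent and 6.74 under overlap hypoxia. The summed level of 8 hepatocyte markers averaged 69956.1 CPM in intermittent hypoxia, the lowest group, and 80654.5 CPM in sustained hypoxia, the highest. Intermittent hypoxia libraries stood apart in ribosomal RNA genes, which held 25.2 ± 7.0% of their counts, against 2.16 ± 0.698% in sustained hypoxia, 9.59 ± 5.82% in overlap hypoxia and 5.22 ± 3.71% in room air (SD, n = 4 each). Mitochondrially encoded genes held 8.44 ± 2.31% in intermittent hypoxia, 1.58 ± 0.121% in sustained hypoxia, 4.37 ± 2.17% in overlap hypoxia and 2.11 ± 0.680% in room air. Nothing in the labels says how the mice or libraries were batched.

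Collagens are proteins of the extracellular matrix built from chains that wind around each other as a triple helix, and the helix needs glycine at the start of each triplet of residues. Fibrillar chains carry a long unbroken helix and pack into fibrils that give tissue its tensile strength, while type IV chains join into the sheet-like network of basement membranes. In liver, hepatic stellate cells and portal fibroblasts are the main makers of fibrillar collagens, and scarring of the liver is an excess of them. Fibril-associated collagens sit on the surface of fibrils, and type VI collagen forms beaded filaments near cells. In RNA from whole tissue, fewer cells of a type and less RNA per cell cannot be told apart.

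The glycine repeat can be read in the genes themselves. Many helix exons of fibrillar collagens are 54 bases long and hold 6 triplets that each begin with glycine. One exon of this form is printed for each of 7 chains the results turn on, so that the repeat and the likeness of paired chains can be seen. Of these chains Col20a1 is fibril-associated, and the others are fibrillar. Sequences are from GENCODE M21 on GRCm38, on the strand of the gene, and capitals mark the GGN codon of glycine that begins each triplet. Glycine codons at other places of a triplet, as in Col1a1 and Col5a1, are left in lower case.
Col1a1: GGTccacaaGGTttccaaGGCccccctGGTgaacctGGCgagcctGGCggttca
Col1a2: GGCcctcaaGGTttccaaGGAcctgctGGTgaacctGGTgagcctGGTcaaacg
Col5a1: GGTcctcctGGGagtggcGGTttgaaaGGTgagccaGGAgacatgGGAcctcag
Col5a3: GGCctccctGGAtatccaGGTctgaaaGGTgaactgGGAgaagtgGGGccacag
Col27a1: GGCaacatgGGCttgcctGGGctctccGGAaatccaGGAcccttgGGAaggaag
Col3a1: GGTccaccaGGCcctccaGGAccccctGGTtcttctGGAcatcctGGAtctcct
Col20a1: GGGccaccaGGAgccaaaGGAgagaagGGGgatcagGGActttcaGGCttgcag
The exons lie at chr11:94939904-94939957 (Col1a1, + strand), chr6:4515481-4515534 (Col1a2, +), chr2:27965251-27965304 (Col5a1, +), chr9:20801068-20801121 (Col5a3, -), chr4:63245069-63245122 (Col27a1, +), chr1:45325360-45325413 (Col3a1, +) and chr2:181013236-181013289 (Col20a1, +). Position by position, the exons of Col1a1 and Col1a2, whose products form type I collagen together, share 42 of 54 bases, and those of Col5a1 and Col5a3 share 37 of 54. The Col27a1 exon (coding exon 7) shares 22 of 54 with that of Col1a1 (coding exon 8). Every such pair shares the GG that begins each of the 6 triplets, because exons were picked for it, so these numbers overstate likeness. At most 4.66% of the 50-base words of a tested collagen occur in transcripts of another gene.

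Classes differed in their repeat structure. The longest unbroken run of triplets led by a GGN codon spanned 216 to 344 triplets in the 11 fibrillar genes (by far the longest in the family), 30 to 66 in the 8 basement membrane genes (median 41.0) and 23 to 113 in the 25 others (median 52.0). Coding exons of exactly 54 bases numbered 21 to 33 in fibrillar genes, 1 to 3 in basement membrane genes and 0 to 28 in the others. Col27a1 and Col24a1 have fibrillar chains with a shorter run, of 217 and 216 triplets, and the most exons of this size, 33 each. Basement membrane helices were broken into 13 to 27 runs of at least 3 triplets.

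**Figure D1:**
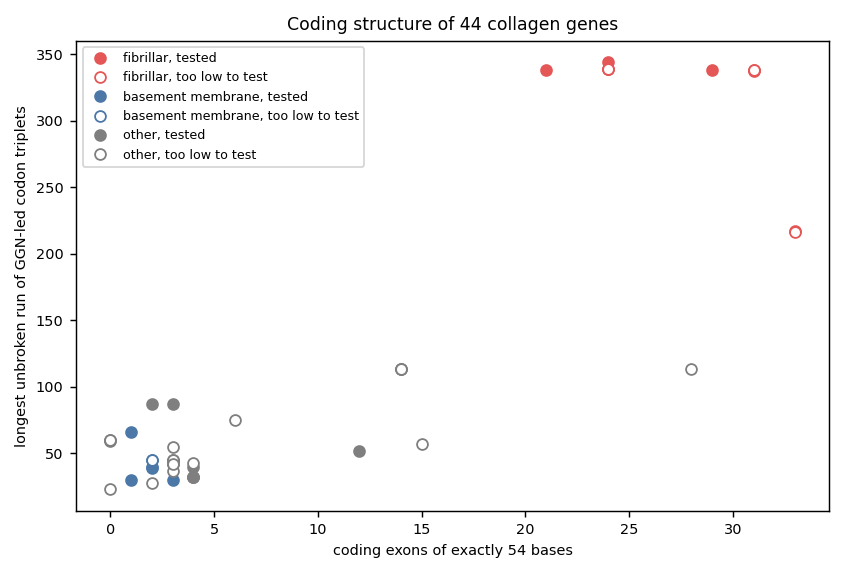
Each point is 1 of the 44 collagen genes, placed by its number of 54-base coding exons and by its longest unbroken run of GGN-led triplets, with filled points for genes that had enough counts to test. Fibrillar genes stand at 216 triplets or more, and all genes of the other classes at 113 or fewer.

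Of the 44 genes, 23 had enough counts to be tested, which here meant about 10 counts (0.2326 CPM) in at least 4 libraries. These were 7 fibrillar, 6 basement membrane and 10 other genes. The 21 that were too low to measure held 621 of 227016 collagen counts, or 0.274%. Among them, Col11a1, Col19a1, Col6a4 and Col9a1 had 0 counts in every library. The other 17 had totals over all 16 libraries of 2 (Col9a2) to 85 (Col6a6), and included the fibrillar genes Col2a1, Col11a2 and Col24a1 and the type IV chains Col4a4 and Col4a6. The tested gene with the lowest total had 135 counts.

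Col2a1, the main chain of cartilage collagen, had 23 counts, of which 22 were in overlap hypoxia replicate 3, the library with the lowest total, where they came to 1.92 CPM. Also too low were the fibril-associated Col9a3 and Col22a1, the type VI chains Col6a5 and Col6a6, the transmembrane Col17a1 and Col23a1, and Col7a1, Col8a2, Col10a1, Col26a1 and Col28a1. Fitted without a filter, none of the untested genes passed in a comparison with room air, with lowest adjusted p of 0.444 under sustained, 0.0959 under intermittent and 0.0627 under overlap hypoxia by edgeR's quasi-likelihood test.

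Levels per length set Col18a1 apart. On the scale of CPM (counts scaled to library size, with TMM factors) per kilobase of exon, Col18a1, the chain whose C-terminal end is released as endostatin, stood at 36.0 ± 4.93 under sustained, 38.4 ± 3.32 under intermittent and 35.5 ± 5.63 under overlap hypoxia, against 26.2 ± 3.42 in room air (SD, n = 4 each). It alone held 68.7% to 83.1% of the collagen counts of a library. Col14a1, a fibril-associated chain, came second in every group, at 2.48 ± 0.734 under sustained, 2.37 ± 0.487 under intermittent and 2.33 ± 0.724 under overlap hypoxia and 2.69 ± 0.506 CPM per kb in room air. Col3a1, the fibrillar chain of reticular fibres, was next in all groups but intermittent hypoxia, where its 1.27 ± 0.609 stood below the 2.09 ± 1.18 CPM per kb of Col5a3. Those ranges overlapped. In room air Col4a1 (0.760 ± 0.226), Col6a1 (0.636 ± 0.184) and Col4a2 (0.496 ± 0.234) followed, neighbours that did not differ beyond their spread. Col5a3 was eighth in room air, at 0.235 ± 0.0245, and Col27a1 eighteenth, at 0.0634 ± 0.0153 CPM per kb. In intermittent hypoxia Col27a1 was eighth, at 0.610 ± 0.402 CPM per kb.

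**Figure D2:**
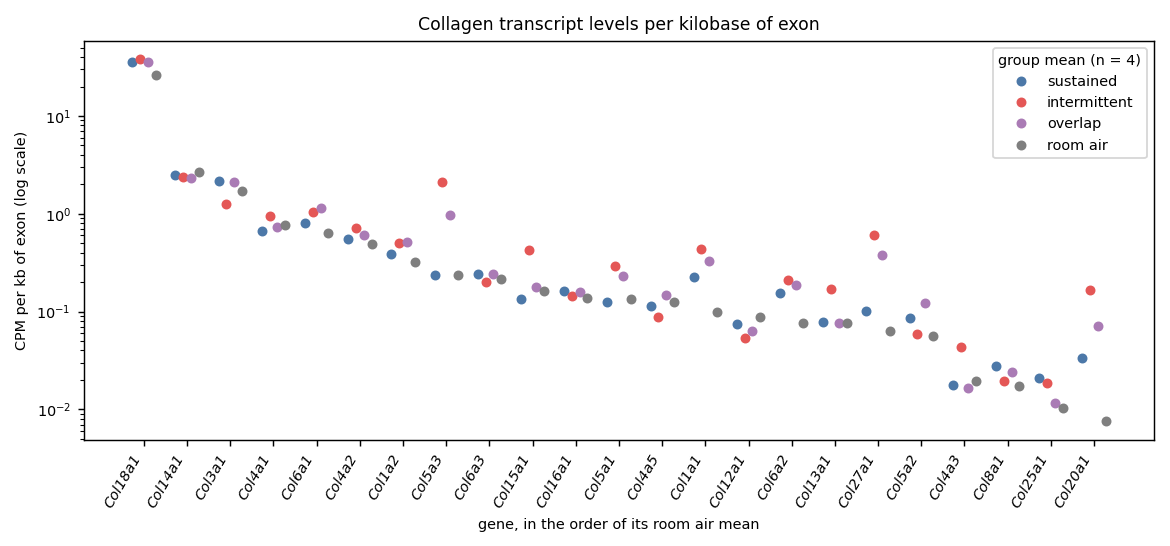
Mean level of each of the 23 tested collagen genes in CPM per kilobase of exon on a log scale, by group (n = 4 libraries each), with genes in the order of their room air mean. Col18a1 is highest in each group, and the intermittent and overlap hypoxia points of Col5a3, Col27a1 and Col20a1 lie above their room air points.

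In intermittent hypoxia, 5 fibrillar, 2 basement membrane and 2 other collagen genes were higher than in room air. By edgeR's quasi-likelihood test with adjustment over all 14553 tested genes, 9 of 23 collagens were higher at an adjusted p under 0.05 and 0 were lower. Over all tested genes, 18.9% were higher and 18.3% lower in this comparison. The 9 were Col1a1, Col1a2, Col5a1, Col5a3 and Col27a1 of 7 fibrillar genes, Col15a1 and Col18a1 of 6 basement membrane genes, and Col6a2 and Col20a1 of 10 others, which for the others is close to the share over all genes. Col20a1 passed the filter on low counts through its intermittent hypoxia libraries, since 3 of the 12 others reached 0.2326 CPM, so its call adds no support to the count. The median log2 fold change of the 23 was 0.67, against 0.03 over all tested genes. In overlap hypoxia 3 collagens were higher and 0 lower, where 3.41% of all tested genes were higher and 2.89% lower. These were Col27a1, Col5a3 and Col20a1, and the median of the 23 was 0.37, against 0.03 over all genes. At an unadjusted p under 0.05 there were 10 collagens in each of these comparisons, where 46.2% of all genes were in intermittent and 22.8% in overlap hypoxia. In sustained hypoxia 0 of 23 passed with edgeR, where 0.0481% of all genes did. There, 3 collagens had an unadjusted p under 0.05, as did 11.5% of all genes, and 0 passed with DESeq2 or limma-voom. All these comparisons share the same room air libraries.

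**Figure D3:**
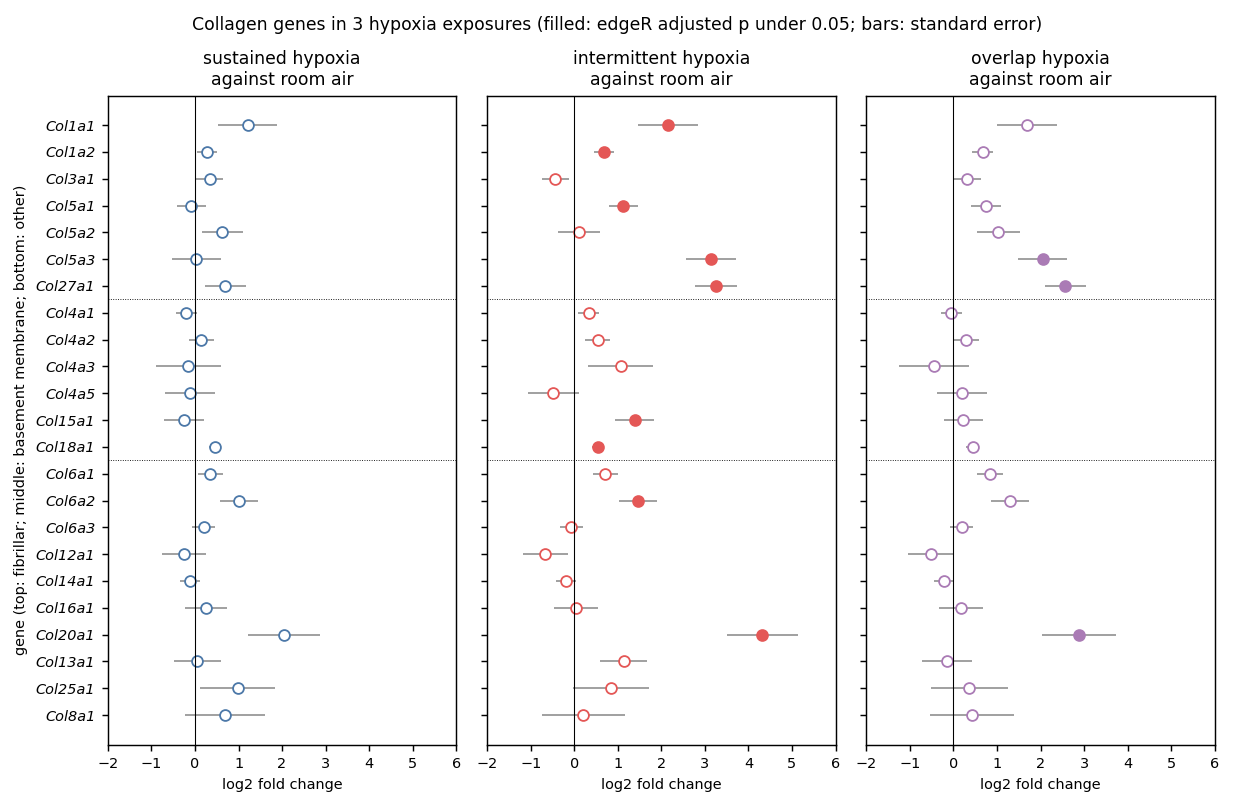
Log2 fold change (edgeR, with standard error) of the 23 tested collagens in sustained, intermittent and overlap hypoxia against room air. Filled points passed at an adjusted p under 0.05, which 0, 9 and 3 collagens did, and all of these lie above 0.

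A measure of the libraries moved with these calls. The 4 intermittent hypoxia libraries held 18.5% to 34.8% of their counts in ribosomal RNA genes, and no other library held more than 16.8%. With that share as a covariate 0 collagens passed in intermittent hypoxia with edgeR, and 77 genes of all tested. The log2 fold changes of the leading genes in that edgeR fit were 2.16 for Col27a1 (adjusted p = 0.258), 1.53 for Col5a3 (adjusted p = 0.510) and 4.13 for Col20a1 (adjusted p = 0.167). Those of the other 6 were 2.93 for Col1a1, 1.92 for Col6a2, 1.11 for Col5a1, 0.89 for Col1a2, 0.64 for Col18a1 and 0.35 for Col15a1, of which the values for Col1a1, Col6a2, Col1a2 and Col18a1 were above those without the covariate. The share did not overlap between intermittent hypoxia and the other groups, so that the share and the exposure cannot be told apart here.

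Transcript length moved with the change as well. Spearman's correlation between exon length and log2 fold change across 14540 genes was 0.26 in intermittent, 0.21 in overlap and -0.12 in sustained hypoxia. It describes genes that are not independent of each other. Tested collagens are long, with a median of 7.46 kb of exon against 4.03 kb for all tested genes. Among the 6260 tested genes within the collagens' range of 4.38 to 15.2 kb, 25.2% were higher and 12.3% lower in intermittent hypoxia, with a median log2 fold change of 0.21. In overlap hypoxia 5.32% of these genes were higher and 1.66% lower. With offsets for exon length and GC content, 3 collagens passed in intermittent hypoxia by edgeR, with log2 fold changes of 2.34 for Col27a1, 2.41 for Col5a3 and 4.04 for Col20a1, and Col27a1 alone passed in overlap hypoxia. The 9 genes higher in intermittent hypoxia had a median exon GC content of 58.0%, and the other 14 one of 52.0%, while their median exon lengths were 7.02 and 7.65 kb.

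**Figure D4:**
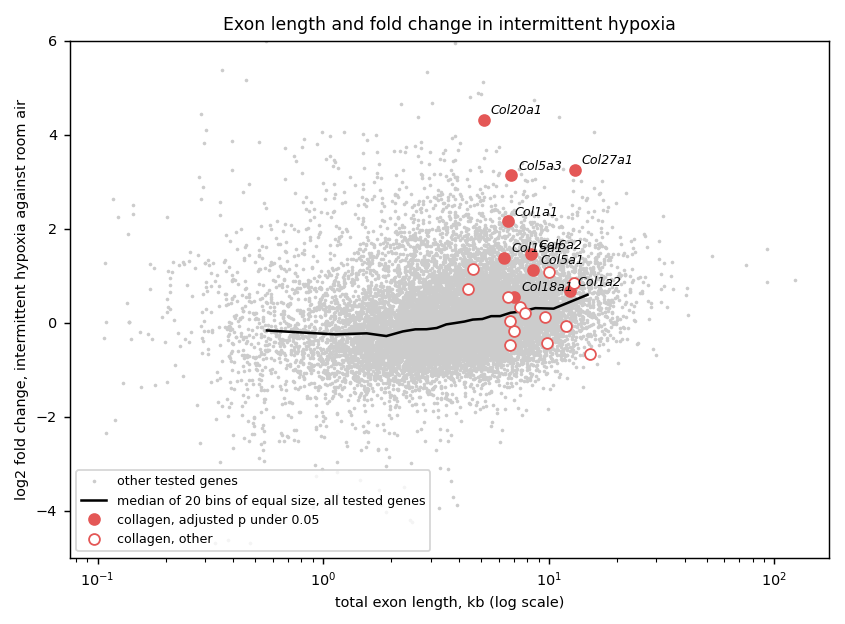
Log2 fold change in intermittent hypoxia against room air for all tested genes by total exon length in kb (log scale), with the median of 20 bins of equal size and the 23 collagens marked. The median is higher for longer genes, and Col20a1, Col27a1 and Col5a3 lie farthest above it among collagens. The vertical range leaves out 29 other genes.

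Among tested fibrillar collagens, Col27a1 and Col5a3 had the largest changes in intermittent and overlap hypoxia, and in sustained hypoxia Col1a1 had the largest value without passing. Col27a1, a fibrillar chain best known from cartilage, lies at chr4:63214004-63334991. Its levels were 1.17, 1.55, 1.65 and 0.956 CPM in the sustained hypoxia libraries, 3.69, 14.6, 9.61 and 3.84 in intermittent hypoxia and 7.15, 2.87, 7.25 and 2.60 in overlap hypoxia, against 1.05, 0.697, 0.624 and 0.936 CPM in room air. Every intermittent and overlap hypoxia library stood above every room air library, while sustained hypoxia overlapped room air. The log2 fold change was 3.26 ± 0.48 in intermittent hypoxia (adjusted p = 0.000105) and 2.57 ± 0.47 in overlap hypoxia (adjusted p = 0.00794) with edgeR. In sustained hypoxia it was 0.69 ± 0.47, with an edgeR adjusted p of 0.627. The overlap hypoxia call was kept in 27 of 27 alternative fits.

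Col5a3 encodes a chain of type V collagen, a minor partner in fibrils, at chr9:20770050-20815067 on the minus strand. It had 1.36, 2.42, 1.17 and 1.52 CPM under sustained, 13.8, 14.5, 24.1 and 4.44 under intermittent and 12.2, 2.75, 9.26 and 2.56 under overlap hypoxia, against 1.80, 1.56, 1.4 and 1.63 CPM in room air. Intermittent hypoxia replicate 3 was the highest library and replicate 4 the lowest of its group, and neither this group nor overlap hypoxia overlapped room air. With edgeR the log2 fold change was 3.14 ± 0.57 (adjusted p = 0.000854) in intermittent and 2.05 ± 0.56 (adjusted p = 0.0465) in overlap hypoxia. It was 0.03 ± 0.56 in sustained hypoxia. The overlap hypoxia call held in 9 of 27 alternatives, and it was lost when any of 12 of the 16 libraries was left out, with log2 fold changes of 1.51 to 2.32 over all 16 and edgeR adjusted p of up to 0.148. The lowest value came without overlap hypoxia replicate 1. In intermittent hypoxia the call held without any 1 library.

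Within overlap hypoxia both genes were high in replicates 1 and 3 and low in replicates 2 and 4. Mitochondrially encoded genes held 5.0% and 7.17% of the counts in replicates 1 and 3, and 2.54% and 2.77% in replicates 2 and 4. The part of this difference in the result was not tested. Ribosomal RNA genes held 9.83%, 2.53%, 9.23% and 16.8% in replicates 1 to 4, and the part of that share was not tested within the group either.

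The 250 bases before the start sites of these genes are printed because the pair was higher in the same groups. They come from RefSeq on GRCm38.p6, at chr4:63215162-63215411 (+ strand) and chr9:20815068-20815317 (- strand), and read 5′ to 3′ towards the start. For Col27a1 the RefSeq start lies inside the gene as GENCODE M21 bounds it.
Col27a1: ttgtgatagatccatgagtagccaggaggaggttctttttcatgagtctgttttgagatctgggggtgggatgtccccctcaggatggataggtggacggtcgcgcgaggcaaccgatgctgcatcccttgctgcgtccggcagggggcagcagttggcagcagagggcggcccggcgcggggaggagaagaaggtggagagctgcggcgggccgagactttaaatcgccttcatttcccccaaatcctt
Col5a3: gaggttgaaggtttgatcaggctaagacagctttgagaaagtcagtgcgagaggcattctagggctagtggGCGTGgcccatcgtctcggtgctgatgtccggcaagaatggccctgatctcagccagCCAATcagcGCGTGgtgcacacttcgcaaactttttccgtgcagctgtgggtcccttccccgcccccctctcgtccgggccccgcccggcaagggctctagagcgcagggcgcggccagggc
Capitals mark matches, on either strand, to ACGTG and GCGTG, the core of hypoxia response elements, to TATAAA and to CCAAT. Col5a3 had 2 matches to GCGTG and 1 to CCAAT, and Col27a1 had 0 matches to any of them in its window of 300 bases. Over all 32851 promoter windows of that length, 19.6% held ACGTG, 32.4% GCGTG, 13.6% TATAAA and 37.4% CCAAT. Of 38 windows of 35 collagen genes, 5 held ACGTG, 10 held GCGTG, 5 held TATAAA and 13 held CCAAT. Matches to short motifs describe letters and are not binding sites.

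Col5a1, the type V chain found in most type V molecules, lies at chr2:27886425-28039514. It had 1.33, 1.14, 0.479 and 1.33 CPM under sustained, 2.95, 1.24, 3.14 and 2.69 under intermittent and 1.49, 1.82, 2.97 and 1.58 under overlap hypoxia, against 1.22, 1.36, 1.06 and 0.936 CPM in room air. Intermittent hypoxia replicate 2 lay within the room air range and the other 3 above it, and overlap hypoxia lay above room air throughout. Its log2 fold change was 1.13 ± 0.34 (adjusted p = 0.0127) in intermittent and 0.74 ± 0.34 (adjusted p = 0.204) in overlap hypoxia by edgeR. In sustained hypoxia it was -0.09 ± 0.34. Col5a1 and Col5a3, whose printed exons share 37 of 54 bases, had changes in intermittent hypoxia of 1.13 and 3.14. Col5a2, the remaining type V chain, did not pass in any comparison, at 0.828 ± 0.345 CPM under sustained, 0.565 ± 0.265 under intermittent and 1.17 ± 0.869 under overlap hypoxia and 0.538 ± 0.129 CPM in room air.

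Both chains of type I collagen had a lower mean level than Col3a1 in all groups. Col1a1, at chr11:94936224-94953042, had 1.08, 2.05, 0.825 and 2.0 CPM under sustained, 1.77, 0.902, 1.44 and 7.29 under intermittent and 1.57, 2.48, 2.88 and 1.62 under overlap hypoxia, against 1.42, 0.490, 0.567 and 0.0960 CPM in room air. Intermittent hypoxia replicate 4 stood far above the rest of its group, whose range overlapped room air. The log2 fold change was 2.16 ± 0.69 in intermittent hypoxia (edgeR adjusted p = 0.0229), and without that library it was 1.07, with an edgeR adjusted p of 0.136. The call was also lost without room air replicate 2 (2.04) or 3 (2.10). In overlap hypoxia, where all 4 libraries lay above room air, it was 1.69 ± 0.69 (edgeR adjusted p = 0.158), and in sustained hypoxia 1.21 ± 0.68.

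Col1a2, the partner of Col1a1 in type I collagen, at chr6:4504814-4541544, was measured at 4.55, 5.39, 3.25 and 6.08 CPM under sustained, 7.40, 4.82, 4.98 and 7.94 under intermittent and 4.19, 6.81, 7.16 and 7.14 under overlap hypoxia, against 4.65, 3.63, 4.44 and 3.10 CPM in room air. Every intermittent hypoxia library was above every room air library, and overlap hypoxia replicate 1 fell within room air. By edgeR the log2 fold change was 0.67 ± 0.23 (adjusted p = 0.0271) in intermittent, 0.67 ± 0.23 (adjusted p = 0.0901) in overlap and 0.29 ± 0.23 (adjusted p = 0.700) in sustained hypoxia. The intermittent hypoxia call was lost in 6 of 27 alternatives, among them leaving out intermittent hypoxia replicate 1 (0.57) or 4 (0.53) or room air replicate 2 (0.63) or 4 (0.57), and with the offsets for length and GC content it was 0.07. Per kilobase of exon, the ratio of Col1a2 to Col1a1 ranged from 1.39 to 2.23 under sustained, 0.576 to 2.82 under intermittent and 1.31 to 2.32 under overlap hypoxia, and from 1.72 to 17.0 in room air. The highest ratio was in room air replicate 4, where Col1a1 had 4 counts. The lengths used, 12.4 kb for Col1a2 and 6.56 kb for Col1a1, join all annotated exons of a gene. The ratio therefore depends on exons that a main transcript may lack.

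Col3a1, at chr1:45311538-45349706, was the fibrillar gene with the highest level in room air and did not pass in any comparison. It had 18.6, 23.7, 14.2 and 29.1 CPM under sustained, 21.3, 11.2, 8.47 and 9.06 under intermittent and 15.9, 29.4, 16.4 and 22.1 under overlap hypoxia, against 20.6, 10.9, 19.8 and 16.6 CPM in room air. In intermittent hypoxia, replicates 3 and 4 were below room air, replicate 2 was near its lower end and replicate 1 was above its upper end. Without replicate 1 the log2 fold change there was -0.84, with an edgeR adjusted p of 0.0222. The log2 fold change was -0.44 ± 0.31 in intermittent hypoxia (edgeR adjusted p = 0.294), where Col1a1, Col1a2, Col5a1, Col5a3 and Col27a1 were higher. It was 0.34 ± 0.31 in sustained and 0.31 ± 0.31 in overlap hypoxia.

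Summed over all 11 fibrillar genes, the level was 25.8 ± 5.31 CPM in room air (SD, n = 4 in each group). It was 32.6 ± 8.96 CPM under sustained, 47.1 ± 7.52 under intermittent and 44.8 ± 4.89 under overlap hypoxia. Most of the difference between intermittent hypoxia and room air lay in Col5a3 and Col27a1. Their means were 14.2 against 1.60 CPM and 7.94 against 0.826 CPM, while that of Col3a1 was 12.5 against 17.0 CPM. Of the CPM of the whole family, Col3a1 made up 6.59% under sustained, 3.45% under intermittent and 6.25% under overlap hypoxia and 6.81% in room air. Col5a3 made up 0.498% under sustained, 3.92% under intermittent and 1.99% under overlap hypoxia and 0.642% in room air, and Col27a1 0.410%, 2.19% and 1.48% in the same exposures and 0.332% in room air. In overlap hypoxia 4 of 7 tested fibrillar genes had no overlap with room air and lay above it, as did 6 of the 23 collagens, where 6.58% of all tested genes lay above and 7.14% below. In intermittent hypoxia 5 of 23 lay above, where 17.4% of all genes did, and in sustained hypoxia 2 of 23, where 4.6% did. Col20a1 was among those above in each exposure. It passed the filter on low counts through its intermittent hypoxia libraries, so it adds no support to the count there. No collagen lay wholly below room air in any exposure, against 4.32% of all tested genes in sustained and 18% in intermittent hypoxia.

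**Figure D5:**
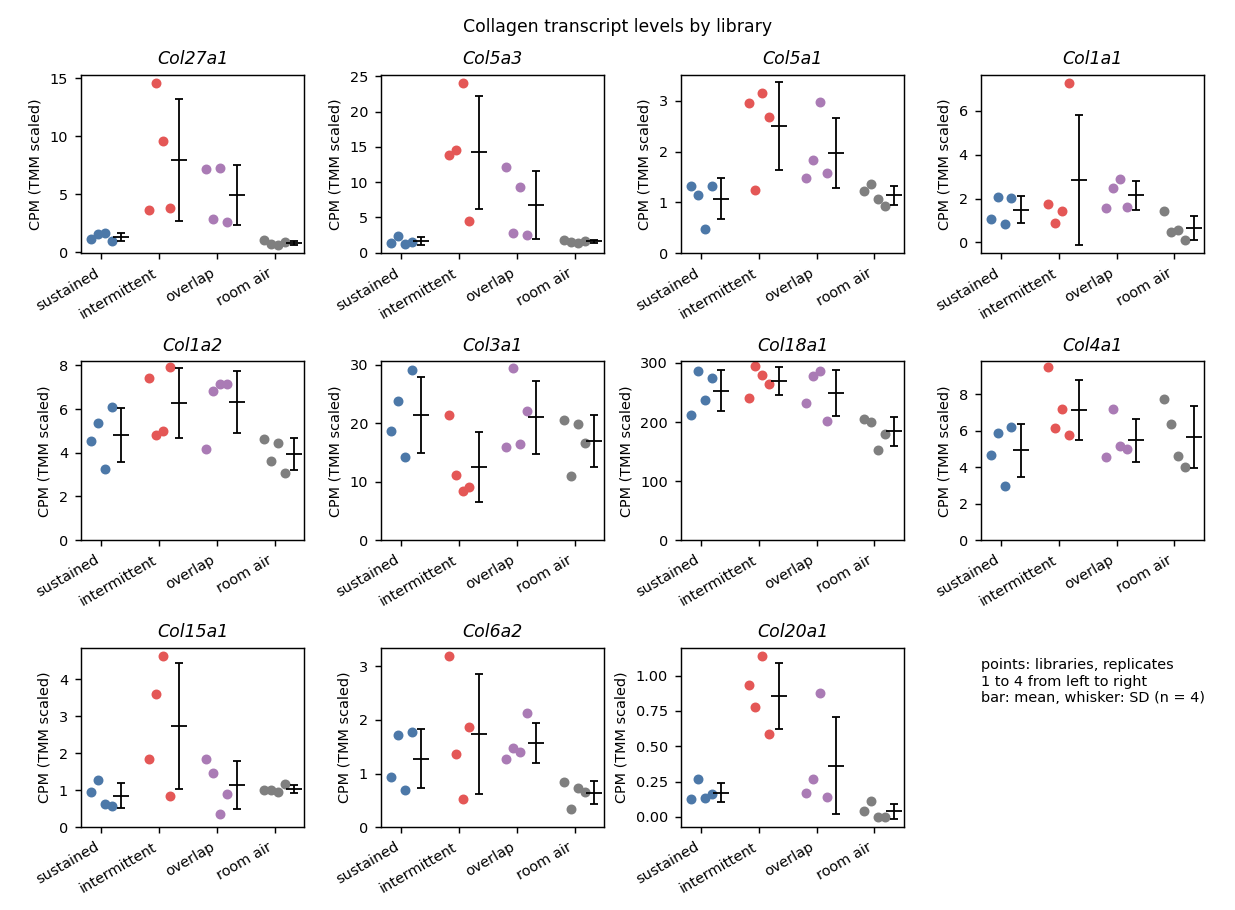
Levels in CPM (TMM scaled) of 11 collagen genes in each library, with the mean and SD of each group of 4 beside the points. Intermittent hypoxia lies above room air without overlap for Col27a1, Col5a3, Col1a2, Col18a1 and Col20a1, and 1 intermittent hypoxia library, at 7.29 CPM, sets the mean of Col1a1.

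Markers of the cells that make collagens were set beside these values. Of 17 stellate cell markers, 4 were higher in intermittent hypoxia by edgeR (Pdgfrb 1.29, Cygb 1.02, Vipr1 1.01 and Ecm1 0.95 on the log2 scale) and 0 lower, where 18.9% and 18.3% of all tested genes were. In overlap hypoxia 0 were higher and 1 lower (Hgf, -1.25), where 3.41% and 2.89% of all genes were. Their summed level ranged over 154 to 262 CPM under sustained, 273 to 319.4 under intermittent and 117 to 267 under overlap hypoxia and 185 to 283 CPM in room air. No stellate marker was at 0 over the libraries. Of 13 tested markers of myofibroblasts and portal fibroblasts, which include Acta2 and Tagln, 0 passed in any exposure with edgeR, with 5 under sustained, 3 under intermittent and 1 under overlap hypoxia at an unadjusted p under 0.05. Over all genes 11.5%, 46.2% and 22.8% were at that level in the same exposures. Their sum ranged over 28.0 to 69.8 CPM under sustained, 22.0 to 41.9 under intermittent and 21.3 to 40.1 under overlap hypoxia and 18.6 to 26.9 CPM in room air, and Gli1 was too low to test. The part of stellate cell markers in the intermittent hypoxia result was not tested.

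In the basement membrane class, Col18a1 and Col15a1, relatives that are cut to release endostatin and a like fragment, rose in intermittent hypoxia. Col18a1, at chr10:77052178-77166548, had 212, 287, 237 and 275 CPM under sustained, 241, 295, 279 and 264 under intermittent and 232, 277, 286 and 202 under overlap hypoxia, against 205, 199.7, 152 and 179 CPM in room air. Each sustained and intermittent hypoxia library was above each room air library, and overlap hypoxia replicate 4 lay within the room air range. On the log2 scale the change was 0.55 ± 0.14 (adjusted p = 0.00506) in intermittent, 0.44 ± 0.14 (adjusted p = 0.0704) in overlap and 0.46 ± 0.14 (adjusted p = 0.225) in sustained hypoxia with edgeR. With offsets for length and GC content the intermittent hypoxia value turned to -0.12, with an edgeR adjusted p of 0.428. Hepatocytes are a known source of Col18a1. Of 8 hepatocyte markers 0 were higher and 2 lower in intermittent hypoxia by edgeR (Cps1, -0.53, and Apoa1, -0.45). Over all genes 18.9% were higher and 18.3% lower. Of the 8 markers, 4 had log2 fold changes above 0 and 4 below, from -0.53 to 0.76. Their part in the Col18a1 result was not tested.

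Col15a1, at chr4:47208161-47313167, had 0.942, 1.28, 0.612 and 0.583 CPM under sustained, 1.84, 3.61, 4.63 and 0.844 under intermittent and 1.85, 1.46, 0.349 and 0.908 under overlap hypoxia, against 1.01, 0.998, 0.945 and 1.18 CPM in room air. Intermittent hypoxia replicate 4 was below every room air library and the other 3 were above. By edgeR the log2 fold change was 1.39 ± 0.45 (adjusted p = 0.0211) in intermittent hypoxia, 0.22 ± 0.45 in overlap and -0.25 ± 0.45 in sustained hypoxia. The call was lost in 7 of 27 alternatives, among them leaving out intermittent hypoxia replicate 3, which gave 1.02 with an edgeR adjusted p of 0.0905, or replicate 2 (1.21), or room air replicate 2 (1.36) or 3 (1.34).

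The main type IV chains did not pass in any comparison. Col4a1, at chr8:11198423-11312826, had 4.68, 5.87, 2.98 and 6.2 CPM under sustained, 9.47, 6.13, 7.16 and 5.79 under intermittent and 4.54, 7.20, 5.15 and 4.97 under overlap hypoxia, against 7.71, 6.36, 4.59 and 4.01 CPM in room air, and all groups overlapped. Its log2 fold changes were -0.20 ± 0.24 under sustained, 0.33 ± 0.24 under intermittent and -0.05 ± 0.25 under overlap hypoxia, with edgeR adjusted p of 0.830, 0.303 and 0.930. Its partner Col4a2 starts head to head with it on the opposite strand of chromosome 8, with first exons that overlap by 22 bases. Whether reads there were assigned by strand is not given in the sources used here. Col4a2 averaged 3.63 ± 1.09 CPM under sustained, 4.77 ± 0.949 under intermittent and 4.02 ± 0.865 under overlap hypoxia and 3.28 ± 1.55 CPM in room air. Per kilobase, the ratio of Col4a1 to Col4a2 ranged from 1.15 to 1.3 under sustained, 0.981 to 1.51 under intermittent and 1.09 to 1.33 under overlap hypoxia and from 1.28 to 2.03 in room air. The kidney and lung chains Col4a3 and Col4a5, at 0.194 ± 0.0768 and 0.839 ± 0.359 CPM in room air, had log2 fold changes of 1.07 ± 0.75 and -0.48 ± 0.58 in intermittent hypoxia that did not pass with edgeR.

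Among the 10 tested genes of other types, Col6a2 and Col20a1 rose in intermittent hypoxia. Col6a2, a chain of type VI collagen at chr10:76595762-76623630, had 0.942, 1.71, 0.692 and 1.77 CPM under sustained, 3.20, 1.37, 0.524 and 1.88 under intermittent and 1.27, 1.48, 1.4 and 2.13 under overlap hypoxia, against 0.838, 0.339, 0.737 and 0.648 CPM in room air. Intermittent hypoxia replicate 3 lay within room air, and all overlap hypoxia libraries were above it. Relative to room air the log2 change was 1.46 ± 0.44 (adjusted p = 0.0128) in intermittent, 1.3 ± 0.44 (adjusted p = 0.0839) in overlap and 1.00 ± 0.44 (adjusted p = 0.376) in sustained hypoxia with edgeR. Without intermittent hypoxia replicate 1 it was 0.99 in that group, with an edgeR adjusted p of 0.0801. Its neighbour and partner chain Col6a1 averaged 3.54 ± 1.53 CPM under sustained, 4.54 ± 0.704 under intermittent and 5.01 ± 1.33 under overlap hypoxia and 2.78 ± 0.807 CPM in room air, with log2 fold changes of 0.35, 0.71 and 0.84 that did not pass with edgeR. Col6a3, the remaining chain of the usual type VI molecule, gave 0.19, -0.07 and 0.19.

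Col20a1, a fibril-associated collagen at chr2:180986535-181018363, had the largest fitted fold change of the 23 tested collagens, on few counts. Outside intermittent hypoxia 3 of 12 libraries reached the filter's 0.2326 CPM, so it could be tested through the group in which it was high. It had 8, 21, 5 and 7 counts in the sustained, 38, 25, 26 and 34 in the intermittent and 10, 11, 10 and 6 in the overlap hypoxia libraries, against 2, 6, 0 and 0 counts in room air. These came to 0.123, 0.266, 0.133 and 0.163 CPM under sustained, 0.935, 0.778, 1.14 and 0.586 under intermittent and 0.167, 0.268, 0.874 and 0.143 under overlap hypoxia and 0.0419, 0.113, 0 and 0 CPM in room air. All libraries of the 3 exposures stood above all room air libraries. By edgeR the log2 fold change was 4.32 ± 0.82 (adjusted p = 0.000471) in intermittent, 2.89 ± 0.85 (adjusted p = 0.0466) in overlap and 2.05 ± 0.83 (adjusted p = 0.334) in sustained hypoxia. Such values rest on 8 counts in room air. The overlap hypoxia call held in 9 of 25 alternatives, and it was lost when any of 13 of the 16 libraries was left out, with log2 fold changes of 2.19 to 4.24 over all 16 and edgeR adjusted p of up to 0.161. The lowest value came without overlap hypoxia replicate 3.

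The other tested genes of this class did not pass in any comparison. Col14a1 averaged 17.4 ± 5.15 CPM under sustained, 16.6 ± 3.42 under intermittent and 16.4 ± 5.07 under overlap hypoxia and 18.9 ± 3.55 CPM in room air, with log2 fold changes of -0.12, -0.19 and -0.21. Col12a1, a fibril-associated chain of tendon and skin, gave -0.26, -0.66 and -0.53. It was listed at 0 counts in intermittent hypoxia replicate 3 and at 13 to 88 counts in every other library. Col16a1, Col13a1, Col25a1 and Col8a1 gave 0.04, 1.13, 0.85 and 0.21 in intermittent hypoxia, with standard errors of 0.50 to 0.95.

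Exposures were also compared with each other, to ask whether the combination differed from its parts. Sustained hypoxia was lower than intermittent hypoxia in 5 of 23 collagens and higher in 0 by edgeR, where 19.5% of all tested genes were lower and 18.9% higher. Col20a1, among the 5, passed the filter on low counts through its intermittent hypoxia libraries, so its call adds no support to this count. The log2 fold changes were -3.11 ± 0.57 for Col5a3 (adjusted p = 0.000912), -2.56 ± 0.46 for Col27a1 (adjusted p = 0.000493) and -2.28 ± 0.71 for Col20a1 (adjusted p = 0.0154). For Col15a1 it was -1.64 ± 0.45 and for Col5a1 -1.22 ± 0.34, both at an edgeR adjusted p of 0.00791. With the ribosomal share as a covariate 0 of 23 passed in this comparison.

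Overlap against sustained hypoxia gave 0 of 23 with edgeR, where 0.165% of all genes passed, with 3 at an unadjusted p under 0.05, as were 20.5% of all genes. DESeq2 called 2 (Col27a1 and Col5a3) and 6.16% of all genes, and limma-voom 1 (Col27a1) and 8.41%. The log2 fold change there was 1.87 ± 0.45 for Col27a1 (edgeR adjusted p = 0.0616) and 2.02 ± 0.56 for Col5a3 (edgeR adjusted p = 0.0775). Overlap against intermittent hypoxia gave 0 of 23 with edgeR, DESeq2 and limma-voom, where 6.15% of all genes passed with edgeR. In that comparison 3 collagens and 25.3% of all genes had an unadjusted p under 0.05. Col27a1 differed there by -0.69 ± 0.43 and Col5a3 by -1.09 ± 0.53. The departure of overlap hypoxia from additivity is its log2 change minus the sum of those of both single exposures. It passed in 0 of 23 with edgeR, where 0.454% of all genes passed, with 3 at an unadjusted p under 0.05, as were 17.5% of all genes. DESeq2 called 0 and limma-voom 1 (Col20a1). The values for Col20a1, Col27a1 and Col5a3 were -3.48 ± 1.09, -1.38 ± 0.64 and -1.13 ± 0.77.

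Genes that make, cut, degrade and bind collagens were followed as lists. Beyond the 3 lowest p of a list, genes that passed are named here after their values were seen, as are the cell markers. Values in parentheses are log2 fold changes. Every count is to be read against all tested genes, of which 18.9% were higher and 18.3% lower in intermittent hypoxia and 3.41% higher and 2.89% lower in overlap hypoxia. Of 18 tested genes of 20 for chain modification and folding, 1 was higher and 3 lower in intermittent hypoxia with edgeR, shares that do not exceed those of all genes. The lower ones were P4hb (-0.82 ± 0.14, adjusted p = 0.00021), a subunit of prolyl 4-hydroxylase and a disulfide isomerase, Ppib (-0.63 ± 0.12), a prolyl isomerase, and Colgalt1 (-0.75 ± 0.17), which adds galactose. These enzymes act on many secreted proteins besides collagens, P4hb most widely. The higher one was Plod3 (0.94), a lysyl hydroxylase. P4hb stood at 879 to 1071 CPM in intermittent hypoxia, against 1703 to 1772 CPM in room air, without overlap. Summed over the list, the level was 2309.7 ± 267 CPM under sustained, 1370.2 ± 83.8 under intermittent and 1731 ± 239 under overlap hypoxia and 2258 ± 47.9 CPM in room air, and P4hb made up most of it. The catalytic subunits P4ha1 and P4ha2 gave 0.08 and 0.15 in intermittent hypoxia, the collagen chaperone Serpinh1 -0.25 and the lysyl hydroxylase Plod2 0.30. Over sustained and overlap hypoxia the values were -0.08 and -0.09 for P4ha1, -0.12 and -0.11 for P4ha2, -0.14 and -0.28 for Serpinh1, and 0.15 and 0.84 for Plod2, and none of these 4 passed with edgeR in any exposure.

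For procollagen cleavage and crosslinking, 11 of 14 genes were tested, and Adamts2, which removes the N-propeptide, was the 1 that rose in intermittent hypoxia (0.93 ± 0.32, edgeR adjusted p = 0.0288). Loxl2, a crosslinking enzyme, gave 0.21 under sustained, -0.22 under intermittent and 0.40 under overlap hypoxia without passing, and Lox was too low to test, with 86 counts over the 16 libraries. For breakdown and its inhibitors, with 11 of 17 tested, 2 were higher and 2 lower in intermittent hypoxia, close to the shares of all genes, and 1 higher and 1 lower in overlap hypoxia. The protease Furin, which activates other proteases, rose by 1.29 ± 0.16 on the log2 scale (adjusted p = 1.22e-05) and 0.85 ± 0.16 (adjusted p = 0.00659) in these 2 groups with edgeR. The inhibitor Timp3 rose in intermittent hypoxia (1.04), and Ctsb fell in both (-0.36 and -0.49), as did Mmp19 in intermittent hypoxia (-0.50). The gelatinase Mmp2 gave 0.35 under sustained, 0.53 under intermittent and 0.17 under overlap hypoxia and did not pass, and Timp1 was too low to test, with 88 counts.

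Of 7 tested collagen receptors of 10, Itga10 was higher (2.09) and Itgb1, the common integrin beta chain, lower (-0.49) in intermittent hypoxia by edgeR. All 15 basement membrane partners were tested, and 6 were higher and 0 lower in intermittent hypoxia, where 18.9% of all tested genes were higher. These were the laminin chains Lama5 (2.03 ± 0.44, edgeR adjusted p = 0.00129), Lama1 (1.02), Lamb2 (0.87) and Lamc1 (0.78), the laminin binder Nid2 (1.52) and the proteoglycan Agrn (0.68). Of 14 genes of transforming growth factor beta signalling, a driver of collagen transcription, 4 were higher and 2 lower in intermittent hypoxia with edgeR, where 18.9% and 18.3% of all genes were. The ligand Tgfb1 (0.99 ± 0.32, adjusted p = 0.0189), the mediator Smad3 (1.14), the inhibitor Smad7 (1.06) and the co-receptor Tgfbr3 (0.70) were higher in edgeR's test. In sustained and overlap hypoxia Tgfb1 gave -0.01 and -0.01. The receptor Tgfbr1 (-0.64) was among the lower ones. Outside the breakdown list, no gene of these lists passed in overlap hypoxia with edgeR, and in sustained hypoxia none passed in any of the 6 lists, where 1, 0, 1, 1, 0 and 2 genes had an unadjusted p under 0.05, as did 11.5% of all genes. For overlap hypoxia these numbers, without the breakdown list, were 3, 1, 3, 3 and 5, where 22.8% of all genes were at that level. With the ribosomal share as a covariate none of the partner genes with the 3 lowest p of a list passed in intermittent hypoxia by edgeR, where Furin was at 1.11 (adjusted p = 0.0963), and Furin alone passed in overlap hypoxia. In that intermittent hypoxia fit Lama5 was at 2.65, Timp3 at 1.48, P4hb at -0.72, Ppib at -0.53 and Itgb1 at -0.45, while Colgalt1 was at -0.20, Agrn at 0.26 and Itga10 at 0.04. Leaving out 1 library ended the intermittent hypoxia calls of Adamts2 and Tgfb1 in 3 of 16 cases each, of Itga10 in 4 and of Ctsb in 6, and the overlap hypoxia call of Ctsb in 6. Offsets for exon length and GC content ended the intermittent hypoxia calls of Agrn (0.13), Lamc1 (0.48), Adamts2 (0.53) and Itga10 (1.91). Their edgeR adjusted p were then 0.554, 0.0874, 0.201 and 0.0543. The other intermittent hypoxia calls among the 3 lowest p of a list held with these offsets.

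Endothelial cells make type IV collagen, laminins and Col15a1, so their markers stand beside the basement membrane results. Of 13 endothelial markers, 3 were higher and 1 lower in intermittent hypoxia (Vwf 1.32, Stab1 0.81, Stab2 1.03 and Clec4g -0.67) by edgeR, where 18.9% of all genes were higher and 18.3% lower. In overlap hypoxia 0 were higher and 5 lower, where 3.41% and 2.89% of all genes were, from -0.82 for Fcgr2b to -1.36 for Clec4g. Their summed level ranged over 96.6 to 134 CPM under sustained, 138 to 153 under intermittent and 57.7 to 102 under overlap hypoxia and 124 to 150.1 CPM in room air. No marker of this list was at 0. Of 2 tested adipocyte markers 1 was lower in intermittent hypoxia by edgeR (Cidec, -1.71), where 18.3% of all genes were. Their part in the collagen results was not tested.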

How the data were processed

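Per the labels' protocols, RNA was taken with Trizol and 1 ug went into Illumina TruSeq RNA libraries. The authors deposited expected counts per gene, which need not be whole: 49.3% of the values above 0 were not. Bowtie 1.3.0, RSEM and GRCm38 are named per the submitters' processing notes. For annotation release, strand and read length the sources used here give nothing. Every library could be tied to a group by its title, and no column was left over.

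Expected counts were rounded and fitted for all 16 libraries with edgeR 4.0.16 (R 4.3.3, TMM scaling, robust quasi-likelihood). Of 55487 genes, 14553 passed edgeR's filter (about 10 counts in at least 4 libraries). P-values were adjusted by Benjamini-Hochberg over all 14553, and a gene was called at an adjusted p under 0.05. DESeq2 1.42.0 and limma 3.58.1 (voom) were alternatives, besides other scalings, filters, covariates, offsets and leaving out each library. The main edgeR fit was tested on simulated counts for intermittent hypoxia against room air, and the alternative fits and other comparisons were not. Levels are CPM after TMM scaling, and exon lengths and 54-base exons come from GENCODE M21. An exon length joins all annotated exons of a gene and can exceed the length of its main transcript, which lowers its level per kilobase. Each library stands for a separate sample in the labels, which do not say how mice were housed or handled together, so p-values stand for the spread among these libraries only. No 2 libraries of a group agreed within sampling noise. Same-numbered libraries of different groups correlated by -0.10 to 0.18 over 24 pairs, so the numbers were not taken as pairs.

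The members and the lists were chosen with earlier results of these data known. Values in every library are printed for collagens called against room air and for 6 preset ones, and from each partner list the genes with the 3 lowest p in a comparison are named, with 9 preset ones. A few marker and signalling genes are not reported here.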

Additional observations from a re-analysis of the deposited data

Results flagged for a closer look

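Of 44 groups of 4 libraries tested for a library far from the others, 3 had one, and chance gives about 1 in 20. Col1a1 in intermittent hypoxia replicate 4 stood at 7.29 CPM, where the other 3 libraries of the group had 0.902 to 1.77. Col20a1 in overlap hypoxia replicate 3, the library with the fewest counts, stood at 0.874 CPM, where the others had 0.143 to 0.268. Col1a2 in overlap hypoxia replicate 1 was low, at 4.19 CPM, where the others had 6.81 to 7.16.

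Sustained and intermittent hypoxia differed from each other in 5 of 23 collagens by edgeR's test of that contrast. All 5 were lower in sustained hypoxia, where 19.5% of all tested genes were lower and 18.9% higher. The collagen count is thus close to the share over all genes. For Col20a1, among the 5, the call adds no support, since it passed the filter on low counts through its intermittent hypoxia libraries. The log2 difference, sustained minus intermittent, was -3.11 for Col5a3, -2.56 for Col27a1, -2.28 for Col20a1, -1.64 for Col15a1 and -1.22 for Col5a1. Ribosomal RNA genes held 1.55% to 2.77% of the counts in sustained hypoxia and 18.5% to 34.8% in intermittent hypoxia, and their part in these differences was not tested beyond the fit with that share as a covariate, in which 0 passed.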

How the results depend on the processing

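In the main fit 9 collagens were called in intermittent hypoxia against room air, with 18.9% of all tested genes higher and 18.3% lower. That count was 0 with the ribosomal share as a covariate and 3 with offsets for exon length and GC content. It was 6 to 11 when 1 library was left out. How many of all genes passed changed with the fit too, so a shift in these counts need not be particular to collagens. In overlap hypoxia the count was 3 in the main fit, where 3.41% of all tested genes were higher and 2.89% lower. It was 5 with DESeq2, 1 with the covariate, 1 with the offsets, and 1 to 4 when 1 library was left out. Col27a1 was the call that stayed whichever library was left out. For overlap against sustained hypoxia, 0 became 2 with DESeq2, 1 with limma-voom and 0 to 2 without 1 library, with the 2 (Col27a1 and Col5a3) reached without overlap hypoxia replicate 2 and Col27a1 called without intermittent hypoxia replicate 2. For overlap against intermittent hypoxia, 0 became 1 without intermittent hypoxia replicate 1 (Col3a1) or replicate 4 (Col15a1), giving 0 to 1. For sustained against intermittent hypoxia, 5 became 0 with the covariate and 4 to 6 without 1 library. The departure from additivity went to 1 with limma-voom and stayed at 0 without any 1 library, as did sustained hypoxia against room air. With the replicate number as a block, the counts were 8 in intermittent and 2 in overlap hypoxia, 5 for sustained against intermittent hypoxia and 0 in the other comparisons. The one call that changed sign was Col18a1 in intermittent hypoxia, at -0.12 with the offsets. The cause of these shifts was not tested. Of 2572 single-gene results under alternatives, 2440 stayed on their side of the threshold, 60 of them without passing and with the other sign, 113 lost and 18 gained a call and 1 reversed. Upper-quartile scaling moved the median log2 change of all genes in intermittent hypoxia to 0.12, against 0.03, and gave 576 genes higher and 309 lower in overlap hypoxia, against 496 and 420. Fitting only the compared groups was not run for the departure. Low counts kept 21 of the 44 collagens out of the tests, and Col20a1 had 0 to 6 counts per room air library.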
